A study of Mus musculus with 2 samples.

Results

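Il10 and Il12b, with 8 other immune regulatory genes, were followed through single immune cells of mouse pancreatic islets. The genes were chosen by symbol from the feature table: Il10, its receptor chain Il10ra, the IL-12 family subunits Il12b, Il12a, Il23a, Il27 and Ebi3, the IL-6 family cytokines Il6 and Osm, and Ptgs2. All 10 symbols matched, out of 32285 genes. The single sample was made from islets of 6 to 8 wild-type (WT) C57BL/6J males, which were pooled, sorted as live cells positive for CD45 and negative for Epcam, and stained with barcoded antibodies against CD9 and CD206. The labels give no age, treatment or second genotype. The same cells were read as an mRNA library and an antibody library. With 1 sample of pooled animals, no difference below has a replicate check, no test was run, and every interval (95%) covers counting error only.

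IL-10 is a cytokine that restrains activated macrophages and dendritic cells, in part by limiting their output of IL-12. It signals through Il10ra, the ligand-binding chain, and Il10rb, which other cytokine receptors share. The IL-12 family is built from paired subunits: the product of Il12b joins that of Il12a to form IL-12 or that of Il23a to form IL-23, while the product of Ebi3 joins that of Il27 to form IL-27. IL-6 and oncostatin M (Osm) signal through the shared chain Il6st, and Ptgs2 encodes the inducible cyclooxygenase that starts prostaglandin synthesis. Islets hold resident macrophages that lie close to the endocrine cells.

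The measured values were unique molecular identifiers (UMIs), which count captured transcripts. Macrophages were defined as cells with at least 5000 RNA UMIs and at least 2000 CPM (UMIs scaled to a common total per cell or class) of C1qa, C1qb and C1qc summed, and 1669 of the 2175 cells kept met this (median 20843 UMIs, 36107668 UMIs in all). All 12 listed macrophage markers were at least 2-fold higher in them than in lymphocyte-like cells. For C1qa, C1qb and C1qc among them this was fixed in advance, since they define the gate. The gate fell in a sparse range of C1q, with 15 cells between 1500 and 2000 CPM just outside it and 23 cells between 2000 and 2500 CPM just inside. Clusters gave 56 dendritic-like cells (median 23842.5 UMIs) and 138 lymphocyte-like cells (median 8974 UMIs). Among the lymphocyte-like cells, 70 resembled T cells, 39 NK cells and 29 B cells. A further 42 endocrine-like cells, with a median (21779 UMIs) close to that of the macrophages, were taken as a class outside the immune lineages. They served to show how often free RNA could give a UMI. Their upper quartile was 81038 UMIs, against 25448 UMIs in macrophages, so shares in the 2 classes are not matched for depth. RNA of endocrine cells was also present in the macrophages, where 7 endocrine markers summed to 2923 CPM.

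Il10 (ENSMUSG00000016529, chromosome 1, 131019845 to 131024970) was found in 476 of the 1669 macrophages, which is 28.5% (26.4 to 30.8%), against 2 of 42 endocrine-like cells (4.76%). These macrophages held 3409 Il10 UMIs in all, or 94.4 CPM. A positive macrophage held a median of 3 UMIs, 110 cells held at least 10, and the richest cell held 82. When each cell was thinned to 5000 UMIs, Il10 was still found in 15.2% of macrophages. Il10ra (ENSMUSG00000032089, chromosome 9, 45253837 to 45269149) was found in 1457 macrophages (87.3%, 85.6 to 88.9%) against 1 of 42 endocrine-like cells, with a median of 4 UMIs in a positive cell and no cell above 23. The receptor transcript was thus spread over most macrophages, and that of its ligand over a minority.

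Il12b (ENSMUSG00000004296, chromosome 11, 44400063 to 44414677) was found in 268 macrophages, or 16.1% (14.3 to 17.9%), against 1 of 42 endocrine-like cells (2.38%). Its 5651 UMIs were held by few cells. The 17 richest macrophages, 1% of all, held 51.7% of them, and the richest 10% held 97.7%. Of the positive cells, 72 held a single UMI, 67 held at least 20, 14 held at least 100 and the richest held 311. For Il10 the same 17-cell share was 23.6%, and for Il10ra 4.58%.

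The partner subunits were found less widely or, for Ebi3, more widely than Il12b. Not 1 Il12a UMI was found in any of the 2237 barcodes or their 44140516 RNA UMIs, and in macrophages a count of 0 allows a share of up to 0.18% of cells with a UMI. This limits captured UMIs and not the share of cells expressing Il12a, since how well this transcript is captured is not known. Il23a was found in 30 macrophages (1.80%, 1.22 to 2.56%), with 50 UMIs in all and no more than 5 in a cell. None of the 42 endocrine-like cells held it, which at their number allows a share of up to 7.14%, so the Il23a share was not above what that comparison can resolve. Il27 (ENSMUSG00000044701) was found in 197 macrophages (11.8%, 10.3 to 13.4%), 136 of them with a single UMI, against 2 of 42 endocrine-like cells (4.76%). After thinning, 4.19% of macrophages held it. Ebi3 (ENSMUSG00000003206) was found in 830 macrophages (49.7%, 47.3 to 52.2%), against 5 of 42 endocrine-like cells (11.9%), with a median of 1.5 UMIs in a positive cell.

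Il6 (ENSMUSG00000025746) was found in 338 macrophages (20.3%, 18.3 to 22.3%), with at most 28 UMIs in a cell, and in 3 of 42 endocrine-like cells (7.14%). Osm (ENSMUSG00000058755) was found in 654 macrophages (39.2%, 36.8 to 41.6%), mostly at low counts: 350 of these cells held a single UMI and the richest held 17. Ptgs2 (ENSMUSG00000032487) was found in 392 macrophages (23.5%, 21.5 to 25.6%), with 61 cells at 10 UMIs or more and the richest at 96. In the endocrine-like cells the shares were 7.14% for Osm and 2.38% for Ptgs2. Reads of Ptgs2 and of its antisense partner Ptgs2os2 cannot be told apart unless counting used the strand, and no label or header states this.

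**Figure D1:**
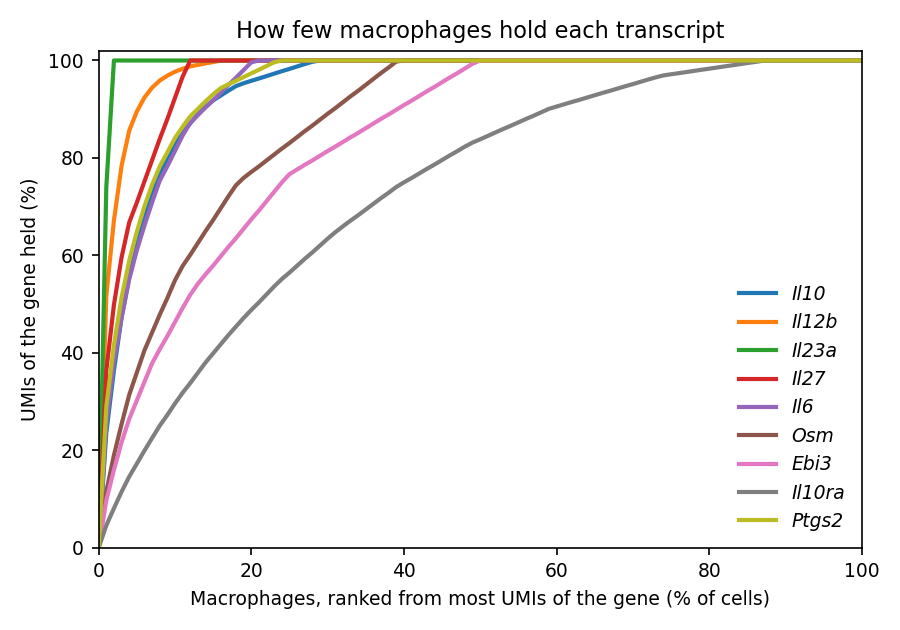
Share of each gene's UMIs (y axis, %) held by the richest macrophages (x axis, % of 1669 cells ranked from most UMIs of that gene); each line is 1 gene, and Il12a, with 0 UMIs, is not drawn. The richest 10% of macrophages held 97.7% of Il12b UMIs, 82.8% of Il10 UMIs and 29.6% of Il10ra UMIs.

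Il10 and Il12b were not kept apart in different macrophages. Both were found in 112 cells, Il10 alone in 364, Il12b alone in 156 and neither in 1037. Deeper cells hold more of any transcript, so the count was set beside the product of the shares within each of 10 depth classes, which gave 84.2 cells, a ratio of 1.33 (1.10 to 1.60). Of Il12b-positive macrophages, 41.8% (35.8 to 47.9%) held Il10, against 26.0% (23.7 to 28.4%) of Il12b-negative ones. After thinning to 5000 UMIs, 41 cells held both against a product of 27.7, a ratio of 1.48 (1.06 to 2.01).

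The overlap was also seen at higher counts. With at least 5 UMIs of each gene required, 33 cells held both against a product of 17.8, a ratio of 1.85 (1.28 to 2.60). With at least 10 UMIs, 15 cells held both against 7.79 (ratio 1.93, 1.08 to 3.18), and with at least 20 UMIs, 5 cells against 2.65, with an interval from 0.61 to 4.40. The macrophages richest in Il12b were not those richest in Il10. Of the 10 macrophages richest in Il12b (134 to 311 UMIs), 5 also held Il10, in 1 case 37 UMIs. Of the 10 richest in Il10 (40 to 82 UMIs), 1 held Il12b, at 3 UMIs. Among all macrophages Il10 was found in 28.5% and Il12b in 16.1%, and 10 cells a side are too few to compare. The kept cell with the most Il12b lay just outside the gate, at 1594 CPM of C1q, and held 328 Il12b UMIs together with 48 Il10 UMIs.

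Among all 45 pairs of the 10 genes, 35 had a product of at least 5 cells and are described here. Their ratios ran between 0.66 and 2.40, with a median of 1.07, and 25 were above 1 and 10 below. Ratios of at least 1.5 were found for 3 pairs. Il6 and Ptgs2 were together in 145 macrophages against a product of 90.0, a ratio of 1.61 (1.36 to 1.90), and of 1.90 after thinning. Il12b and Il27 were together in 64 cells against 35.8, a ratio of 1.79 (1.38 to 2.28), but the thinned ratio was 1.23 (0.59 to 2.27) on 10 cells. Il23a and Ptgs2 were together in 19 cells against 7.92, a ratio of 2.40 (1.44 to 3.75), on 30 Il23a-positive cells. Their thinned ratio was 1.80 (0.22 to 6.51) on 2 cells. The lowest ratio was that of Il27 and Osm, with 54 cells against 82.1, a ratio of 0.66 (0.49 to 0.86). After thinning it was 0.51 (0.17 to 1.20) on 5 cells. The pair of Il10 and its receptor chain Il10ra lay at 0.94 (0.85 to 1.04).

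**Figure D2:**
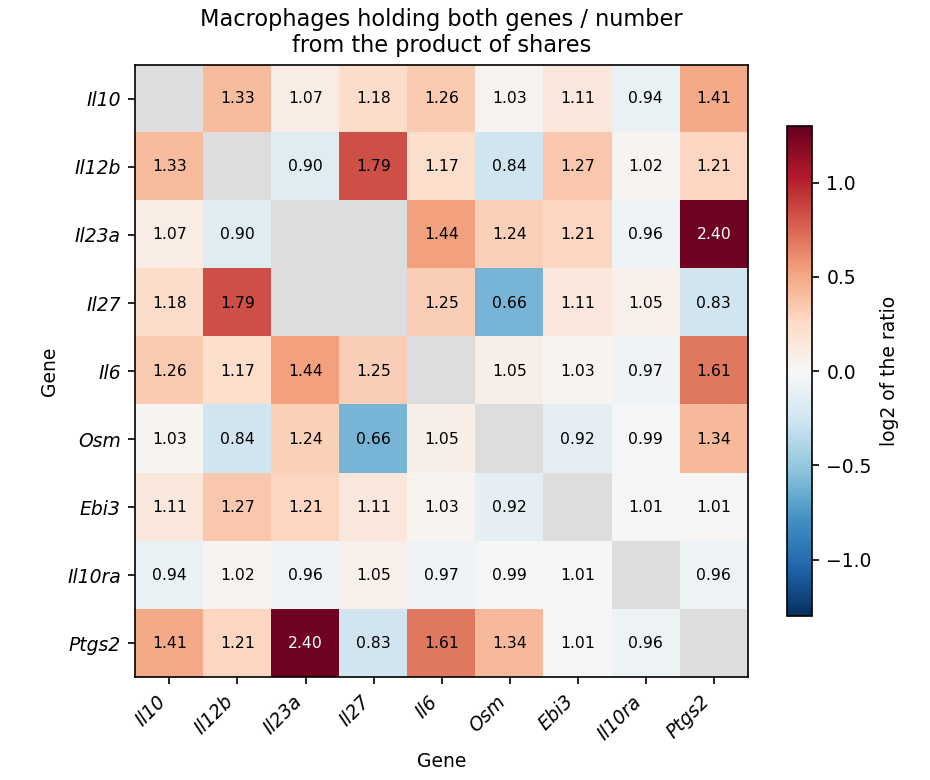
Ratio of the number of macrophages holding at least 1 UMI of both genes to the number from the product of their shares within depth classes, for each pair of genes on the x and y axes; the colour gives its log2, grey marks the diagonal and pairs with a product under 5 cells, and Il12a is not drawn. Il10 and Il12b lay at 1.33, Il6 and Ptgs2 at 1.61, and Il27 and Osm at 0.66.

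Promoter sequence is shown for Il12b, concentrated in few cells, and for the overlapping pair Il6 and Ptgs2. The RefSeq promoter table (GRCm38.p6) held entries for 5 of the 10 genes (Il12b, Il12a, Il6, Ebi3 and Ptgs2). The 250 bases before each annotated start were searched on both strands for the AP-1 motif TGANTCA, the cAMP response element core ACGTCA, the C/EBP motif TTNNGNAA and the NF-kB consensus. Capitals mark every match, and lower case the rest.
Il12b (chr11:44399813-44400062, plus strand): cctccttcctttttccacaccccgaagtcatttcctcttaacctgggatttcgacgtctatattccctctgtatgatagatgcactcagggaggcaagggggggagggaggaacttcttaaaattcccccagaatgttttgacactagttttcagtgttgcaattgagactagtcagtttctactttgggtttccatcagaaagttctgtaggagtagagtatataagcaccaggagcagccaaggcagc
Il6 (chr5:30012864-30013113, plus strand): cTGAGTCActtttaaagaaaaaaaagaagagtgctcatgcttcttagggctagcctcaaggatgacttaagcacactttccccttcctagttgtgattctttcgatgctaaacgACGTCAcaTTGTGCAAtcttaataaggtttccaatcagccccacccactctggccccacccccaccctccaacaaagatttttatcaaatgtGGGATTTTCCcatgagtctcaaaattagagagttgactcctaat
Ptgs2 (chr1:150099781-150100030, plus strand): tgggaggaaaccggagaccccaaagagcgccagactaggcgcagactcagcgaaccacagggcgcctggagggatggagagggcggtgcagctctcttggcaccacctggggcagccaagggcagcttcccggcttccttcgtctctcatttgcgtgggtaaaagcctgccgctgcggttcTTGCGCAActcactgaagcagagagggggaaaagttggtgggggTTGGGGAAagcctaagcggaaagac
The Il6 window held 1 match of each of the 4 motifs, and the Ptgs2 window held C/EBP matches at 2 places, 1 of them a palindrome that reads the same on both strands. The Il12b window held no match to any of the 4. Of 32851 promoter windows of the same length, 7.25% held the NF-kB consensus, 6.75% the AP-1 motif, 6.47% the cAMP response element core and 36.8% the C/EBP motif. A match is a description of the letters and no evidence of binding.

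Within the macrophages the genes were unevenly spread over clusters, which had been built without any of the 10 genes. Il10 was highest in cluster 2, led by Cxcl3, Cxcl1, Tnfsf9 and Clec4e, where it was found in 58.0% of 200 cells at 261 CPM. That cluster held 38.3% of all macrophage Il10 UMIs. Il10 stood at 148 CPM in cluster 11, led by Ifnb1, Fap and Gem, and at 13.1 CPM, in 8.6% of cells, in cluster 3, led by Arhgap45 and Myo1f. Il12b was high in cluster 2 as well (378 CPM, 26.5% of cells) and in cluster 5, led by Cd207 and Tgfbr1 (391 CPM, 28.9% of 152 cells). These 2 clusters and cluster 0, led by the interferon-induced genes Ifit3 and Cmpk2 (174 CPM), held most Il12b UMIs, at 33.4% in cluster 2, 19.7% in cluster 5 and 22.01% in cluster 0. In cluster 7, led by S100a6 and Pltp, 55.1% of the Il12b UMIs came from 1 cell. Cluster 4, led by Lpar6 and Slc40a1, had 21 Il12b UMIs in 169 cells (5.98 CPM).

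The other genes had their own high clusters. Il27 stood at 34.3 CPM in the interferon-gene cluster 0, where 28.8% of cells held it, and at no more than 8.41 CPM in each of the other 11 numbered clusters. Il6 (163 CPM, 62.1% of 87 cells) and Ptgs2 (217 CPM, 55.2%) were both highest in cluster 11. Osm was highest in cluster 8, led by Efr3b and Gdf15 (93.5 CPM), and in cluster 1, led by the heat-shock genes Hspa1b and Hspa1a (88.0 CPM). Ptgs2 was also high in that heat-shock cluster, at 128 CPM. In cluster 3 Il6 was nearly absent, with 1 UMI in 174 cells, and Ptgs2 stood at 4.48 CPM, whereas Il10ra was at its highest level there (319 CPM). Il10ra was lower in the clusters richest in Il10, at 120 CPM in cluster 2 and 123 CPM in cluster 11. It was as low in some clusters poorer in Il10, at 123 CPM in cluster 1 (Il10 49.3 CPM) and 118 CPM in cluster 14 (Il10 16.0 CPM). Cluster 6, whose 53 gated cells were shallow (median 6060 UMIs) and led by mitochondrial and other high-copy RNA, had the lowest Il10ra level, 48.9 CPM. Within clusters, 110 cells held both Il10 and Il12b against 85.1 from the product of shares in each cluster, a ratio of 1.29 (1.06 to 1.56) that takes no account of depth. With each cluster split into 3 depth classes the product was 89.4 and the ratio 1.23 (1.01 to 1.48). It was above 1 in 9 of 12 clusters, and cluster 14, with 0 Il12b-positive cells, gave no ratio. Most single clusters held few cells with both genes. Without depth classes, only cluster 3 had an interval above 1 (1.05 to 7.52, on 5 cells). Cluster 2 stood at 1.14 (0.79 to 1.58).

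**Figure D3:**
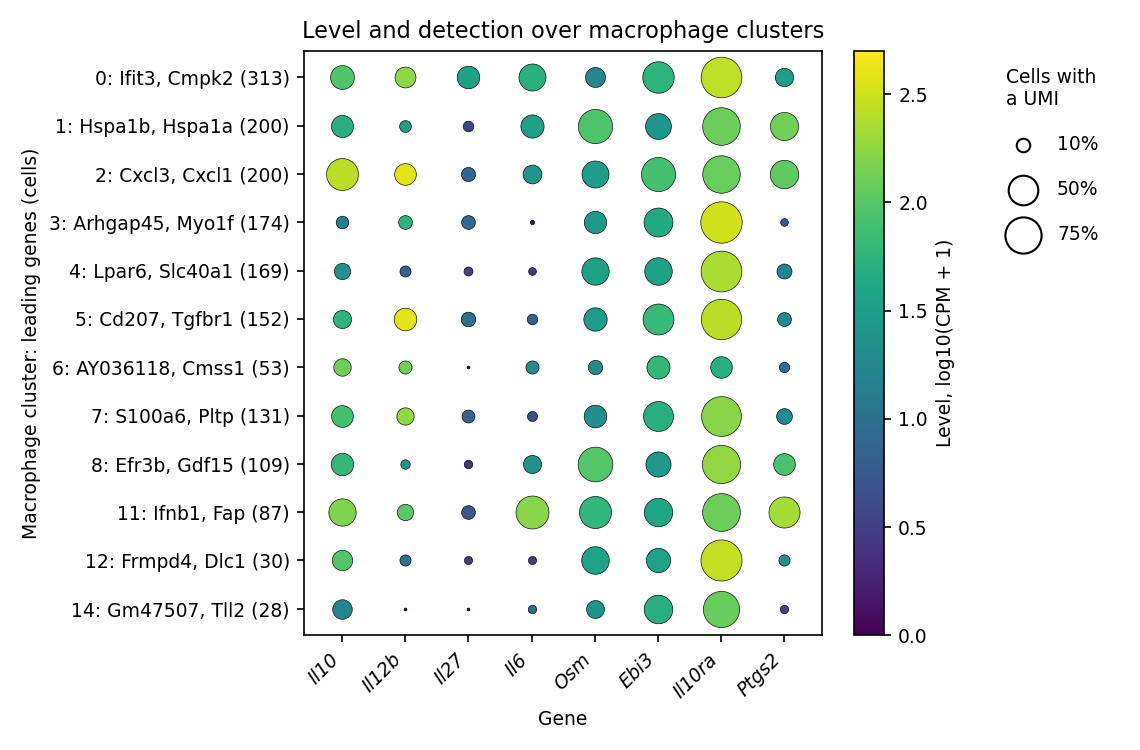
Level of 8 genes (colour, log10 of CPM + 1) and share of cells with at least 1 UMI (area of the point) in the 12 numbered macrophage clusters (y axis, with 2 leading genes and the number of gated cells). Il10 was highest in cluster 2 at 261 CPM, Il12b in clusters 5 and 2 at 391 and 378 CPM, and Il6 and Ptgs2 in cluster 11 at 163 and 217 CPM.

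Macrophages were set beside lymphocyte-like cells. Of the 9 genes with at least 20 UMIs in both sums together, 8 were at least 1.5-fold higher in macrophages and none was lower, while over all 13231 genes tested this way 19.1% were higher and 49.3% lower. Il12b had 5651 UMIs in macrophages and 0 in lymphocyte-like cells. Against a floor of 3 counts over the lymphocyte sum it was 70.4-fold higher, and the lower bound of the ratio was 57.2. Il6, also at 0 UMIs in lymphocyte-like cells, was 13.4-fold higher against that floor, with a lower bound of 10.9. Ptgs2 stood at 61.1 CPM in macrophages and 1.48 CPM in lymphocyte-like cells, a ratio of 41.2 (11.4 to 341). Il10 stood at 94.4 CPM in macrophages and 8.15 CPM in lymphocyte-like cells, a ratio of 11.6 (6.47 to 23.2). Of the 11 lymphocyte Il10 UMIs, 8 came from 3 of the 29 B cell-like cells and 3 from 2 T cell-like cells. Ebi3, Il27 and Osm were 22.1-fold, 14.6-fold and 6.54-fold higher in macrophages, and Il10ra 3.98-fold (3.14 to 5.14). Il23a, at 0 UMIs in lymphocyte-like cells, could not be given a direction at this depth.

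Dendritic-like cells, which were as deep as macrophages, gave another picture. They comprised a cluster of 34 cells and a cluster of 22 cells that differed in level and not by clean marker sets. The 34 cells had more Cd209a (279 CPM, against 62.8 CPM) and Ccr7 (761 CPM, against 235 CPM). The 22 cells had more Xcr1 (159 CPM, against 66.6 CPM) and Clec9a (136 CPM, against 58.0 CPM). They also had more of the cycling gene Top2a (389 CPM, against 18.5 CPM). Xcr1 was found in 28.6% and Clec9a in 32.1% of the 56 cells. Here 4 of 9 genes were at least 1.5-fold higher in macrophages and none was lower, with 19.9% higher and 28.6% lower among all 12999 genes tested. For Il10 the size of the difference depended on 5 cells. No Il10 UMI was found in the 1384049 RNA UMIs of the dendritic-like cells. Against a floor of 3 counts, Il10 was 43.6-fold higher in macrophages, with a lower bound of 35.4. However, 5 cells of the Cd209a and Ccr7 cluster passed the C1q gate and were counted as macrophages, and 3 of them held 80 Il10 UMIs, 55 of these in 1 cell of 65620 RNA UMIs. With the 5 cells counted as dendritic-like (decided on once their values were known), Il10 stood at 92.7 CPM in macrophages and 50.3 CPM in dendritic-like cells, a ratio of 1.84 (1.48 to 2.33). The count of 4 genes higher and none lower was unchanged by this, and the 5 cells held no Il12b. Il12b was found in 268 of 1669 macrophages and in 6 of 56 dendritic-like cells (10.7%, 4.03 to 21.9%), at 157 CPM and 67.9 CPM, a ratio of 2.30 (1.88 to 2.86). A single dendritic-like cell held 42 of its 94 Il12b UMIs there. Osm was 4.47-fold (2.55 to 8.67) and Ptgs2 6.04-fold (3.59 to 11.1) higher in macrophages. Ebi3 (ratio 0.97, 0.76 to 1.25), Il10ra (1.20, 1.05 to 1.38), Il6 (1.25, 0.89 to 1.83) and Il27 (1.499, 0.81 to 3.15) lay under the 1.5-fold limit. The sum of the 14 listed immediate-early and heat-shock transcripts also differed, with a median per cell of 4551 CPM in macrophages, 2160 CPM in dendritic-like cells and 1173 CPM in lymphocyte-like cells; its part in these differences was not tested.

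**Figure D4:**
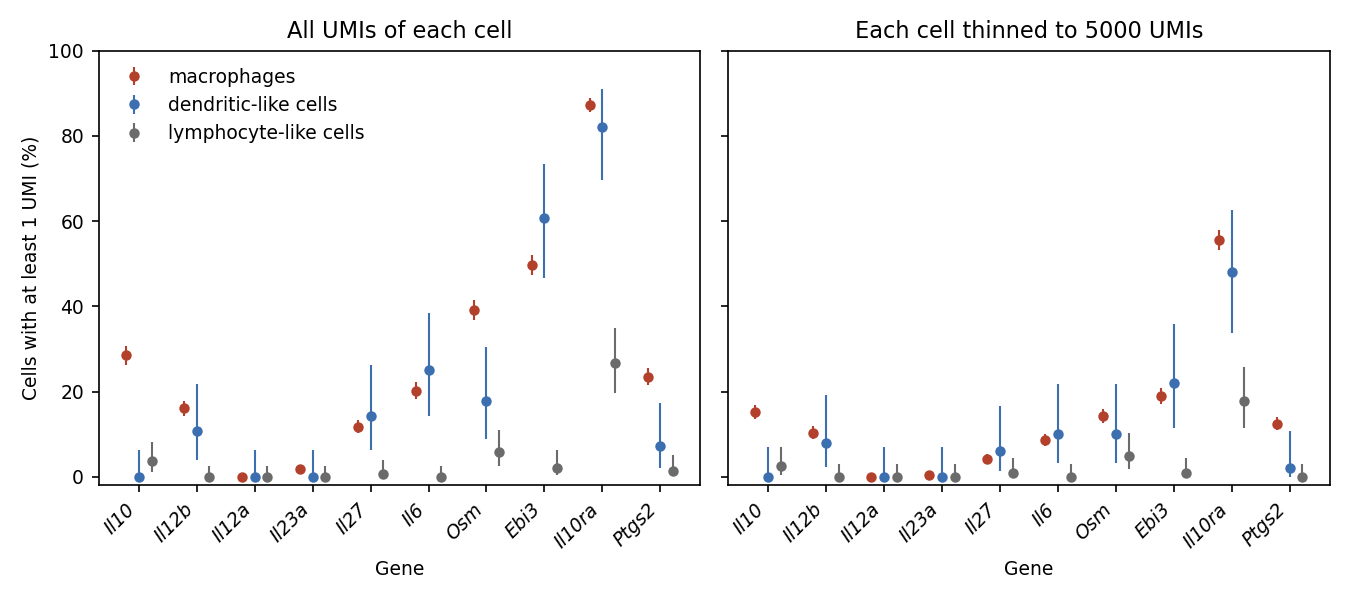
Share of cells with at least 1 UMI of each gene (y axis, %) in macrophages, dendritic-like and lymphocyte-like cells, with all UMIs (left) and with each cell thinned to 5000 UMIs (right); points are shares and bars exact 95% binomial intervals that cover counting error only. Il10 was found in 28.5% of macrophages, 0 of 56 dendritic-like cells and 3.62% of lymphocyte-like cells, with 5 gated cells of a dendritic-like cluster among the macrophages.

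The genes that receive these signals lay partly in other cells. Of the receptor and response genes of the IL-12 family, 7 of 7 tested were at least 1.5-fold lower in macrophages than in lymphocyte-like cells (median log2 ratio -7.11, with Ifng taken against the floor, and -0.72 over all genes). Over all 13231 genes tested in this comparison, 49.3% were lower. Il12rb2, the signalling chain of the IL-12 receptor, stood at 6.04 CPM in macrophages, 538 CPM in NK cell-like cells and 228 CPM in T cell-like cells. Stat4, which carries the IL-12 signal, stood at 32.0 CPM in macrophages and 845 CPM in lymphocyte-like cells, and Ifng, its classical target, had 0 UMIs in macrophages and 54 in lymphocyte-like cells. Il23r and Il27ra had 1 and 11 UMIs in macrophages, and 44 and 57 in lymphocyte-like cells. Il10rb, the second chain of the IL-10 receptor, was at 208 CPM in macrophages and 101 CPM in lymphocyte-like cells. Osmr, the receptor chain for oncostatin M, was found mainly outside the immune cells: 52 UMIs in 13 endothelial-like cells (206 CPM), against 30 UMIs in the 1669 macrophages.

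Of the 11 tested genes of the IL-10 receptor and its signalling, 5 were at least 1.5-fold higher and 3 lower in macrophages than in lymphocyte-like cells; the shares over all genes in this comparison, 19.1% higher and 49.3% lower, stand beside this count and those that follow. Socs3, a feedback inhibitor induced through Stat3, stood at 273 CPM in macrophages and 119 CPM in lymphocyte-like cells, and Zfp36, which destabilises cytokine mRNA, was 5.43-fold higher in macrophages. Stat3 itself stood at 205 CPM in macrophages and 958 CPM in lymphocyte-like cells. Around Ptgs2, 8 of 11 tested prostanoid genes were higher and 1 lower in macrophages than in lymphocyte-like cells. Hpgds, the haematopoietic prostaglandin D synthase, stood at 567 CPM in macrophages, 91.0 CPM in dendritic-like cells and 14.8 CPM in lymphocyte-like cells. Pla2g4a, which releases arachidonic acid, was 38.2-fold and Tbxas1, the thromboxane synthase, 95.8-fold higher in macrophages than in lymphocyte-like cells, the last with a single lymphocyte UMI and an interval from 17.2 to 3784. Among other regulatory cytokines, 4 of 7 were higher and 2 lower, and Il1rn, the IL-1 receptor antagonist, stood at 330 CPM in macrophages and 1.48 CPM in lymphocyte-like cells. Of the 9 IL-6 and oncostatin M family genes tested, 4 were higher and 3 lower. Of 18 transcription factors linked to Il10 or Il12b, 7 were higher and 6 lower, with Maf, an activator of Il10 in macrophages and T cells, at 21.1 CPM in macrophages, 1.45 CPM in dendritic-like cells and 100.01 CPM in lymphocyte-like cells.

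By surface CD9, 2 of 9 genes passed 1.5-fold, 1 in each direction. The upper and the lower tercile of macrophages by CD9 within depth classes (559 cells each) had medians of 3147 and 54 CD9 antibody UMIs. CD9-high macrophages had Il10 at 88.8 CPM, against 103.8 CPM in CD9-low ones, a ratio of 0.86 (0.79 to 0.93). They had Il12b at 149 CPM, against 144 CPM in CD9-low ones (1.03, 0.97 to 1.11), and without the single richest Il12b cell the log2 ratio was -0.21. Il27 was the 1 gene past 1.5-fold upward, with 163 UMIs in CD9-high and 100 UMIs in CD9-low macrophages (ratio 1.54, 1.19 to 1.99), but without the single cell richest in Il27 the log2 ratio was 0.37, under that limit. Il23a was the 1 gene past it downward, with 14 UMIs in CD9-high and 26 UMIs in CD9-low macrophages (0.51, 0.25 to 1.01). Over all 12067 genes tested, 11.2% were higher and 5.4% lower in CD9-high macrophages. Across quintiles by CD9, from the lowest up, the level of Il12b ran 110, 193, 142, 184 and 154 CPM, with no steady order. Ptgs2 stood at 64.2 CPM in the highest quintile (330 cells) and 45.2 CPM in the lowest (340 cells), a ratio of 1.42. That value rested on few cells: with 330 cells on each side, which leaves 10 cells out of the lower side, Ptgs2 had 483 UMIs in CD9-high and 277 UMIs in CD9-low macrophages and a log2 ratio of 0.69, past the limit. Of 13 endocrine hormone genes, 1 was higher and 7 lower in the CD9-high tercile (median log2 ratio -0.62, against 0.09 over all genes), and their part in these values was not tested. By CD206, 0 of 9 genes passed 1.5-fold in either direction, where 6.68% of all 12132 genes tested were higher and 5.05% lower. The nearest was Ptgs2, at 64.7 CPM in CD206-high and 48.2 CPM in CD206-low macrophages (1.34, 1.20 to 1.498). The CD206-high and CD206-low terciles had medians of only 29 and 3 CD206 antibody UMIs. They also differed in CD9, with medians of 1498 and 244 CD9 antibody UMIs. Of the 13 endocrine hormone genes, 0 were higher and 8 lower in the CD206-high tercile (median log2 ratio -0.72). The part of CD9 and of endocrine RNA in the CD206 values was not tested.

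**Figure D5:**
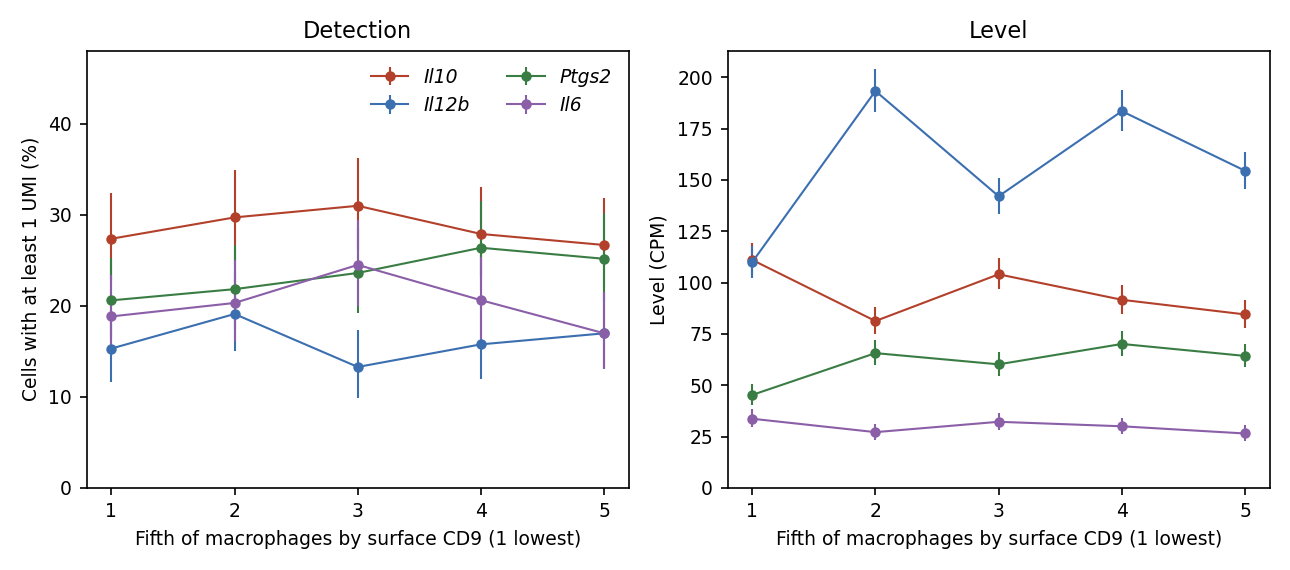
Share of macrophages with at least 1 UMI (left, %) and level (right, CPM) of 4 genes over quintiles of macrophages ordered by surface CD9 within depth classes (x axis, 1 lowest); bars are exact 95% intervals that cover counting error only. Il10 was found in 26.7% of the highest and 27.4% of the lowest quintile.

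Macrophages with a UMI of a gene were then set beside those without. The positive cells are a range of a count, not a cell type, and 173 of the 476 Il10-positive cells held a single Il10 UMI. The positive cells were also deeper, with a median of 22894.5 UMIs in Il10-positive and 19927 UMIs in Il10-negative macrophages. Besides Il10, 5 of 8 genes were at least 1.5-fold higher in Il10-positive macrophages, where 4.66% of all 12865 genes were higher and 10.1% lower. Ptgs2 stood at 96.1 CPM in Il10-positive and 43.9 CPM in Il10-negative macrophages (2.19, 2.01 to 2.38). Il12b stood at 221 CPM in Il10-positive and 125 CPM in Il10-negative macrophages (1.77, 1.67 to 1.86). Il6, Il23a and Ebi3 had ratios of 1.60, 1.60 and 1.53, that of Il23a on 50 UMIs in all and with an interval from 0.87 to 2.91. Il10ra stood at 164 CPM in Il10-positive and 218 CPM in Il10-negative macrophages (0.75, 0.71 to 0.79).

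The genes most like Il10 were taken as those whose ratio between Il10-positive and Il10-negative macrophages had the highest lower bound, over the 1669 cells and leaving out the 10 genes themselves. They were Cxcl1, a neutrophil-attracting chemokine (ratio 3.21), Mki67, a proliferation marker (2.99), Ccr7, a homing receptor of migratory dendritic cells (3.11), Tnfsf9, a costimulatory ligand (2.95), and Edn1, which encodes endothelin (3.19), followed by Lrrk2, Sphk1, Tnip3, Col27a1 and F3. Cxcl1, Tnfsf9 and Mki67 were also leading genes of cluster 2, the numbered cluster highest in Il10. Lrrk2 had a ratio of 2.72, and of 1.94 without its richest cell. Tnip3, an inhibitor of NF-kB signalling, stood at 943 CPM in Il10-positive and 458 CPM in Il10-negative macrophages. At the other end stood Trpm3, Ptprm, Pcsk2, Lpar6, Myo1f and Zfp36l2, with ratios between 0.29 and 0.48. Without the 1 cell richest in Trpm3 its ratio of 0.29 was 0.50. Lpar6, Myo1f and Zfp36l2 were also leading genes of cluster 3, the numbered cluster lowest in Il10. The part of the clusters in these ratios was not tested. Pcsk2, a prohormone convertase, was also a leading gene of the endocrine-like cluster. Some markers of dendritic cells moved with Il10 as well: 5 of 7 tested of the cDC2 list were higher and none lower, and of the migratory list 4 of 5 were higher and 1 lower. Their summed levels were 312 CPM in Il10-positive and 309 CPM in Il10-negative macrophages for the cDC2 list, and 82.7 CPM in Il10-positive and 39.3 CPM in Il10-negative macrophages for the migratory list. Of the cDC1 list only 1 of 6 tested was higher and none lower. Its sum was 955 CPM in Il10-positive and 1065 CPM in Il10-negative macrophages. Without the 5 gated cells of the dendritic-like cluster, the cDC2 and migratory counts were 4 of 6 and 3 of 5. The ratio of Ccr7 was then 2.26. The same 5 of 8 genes, Il12b among them (1.79), passed 1.5-fold, and beyond this the part of these markers was not tested. Il1rn was also higher, at 469 CPM in Il10-positive and 261 CPM in Il10-negative macrophages. Of 13 endocrine hormone genes, 10 were lower in Il10-positive macrophages, Ins1 standing at 585 CPM in Il10-positive and 912 CPM in Il10-negative macrophages; the part of this RNA in the other differences was not tested.

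In Il12b-positive macrophages, 3 of the 8 other genes were at least 1.5-fold higher, where 4.93% of all 12865 genes were higher and 13.3% lower. Il27 stood at 22.2 CPM in Il12b-positive and 8.28 CPM in Il12b-negative macrophages (2.68, 2.17 to 3.30). Ebi3, the partner of Il27, stood at 79.4 CPM in Il12b-positive and 42.2 CPM in Il12b-negative macrophages (1.88, 1.70 to 2.08). Il10 had a ratio of 1.52 (1.41 to 1.64), and Osm one of 0.70 (0.60 to 0.82). Leaving out the 10 genes, those most like Il12b were Kctd14 (ratio 4.01), Tnfsf9 (2.998), the chemokine gene Ccl12 (2.62), Lrrk2, Ccdc162, Gm34589, Cxcl1, Vash1, Acod1, which encodes the enzyme that makes itaconate (2.14), and BC035044. Lrrk2 had a ratio of 2.71, and of 1.53 without its richest cell. Those furthest from it were Tesk2, Gm4107, Fap, Osbp2, Rgcc and Gm26887, with ratios between 0.08 and 0.32. Of the 18 transcription factors, 3 were higher and none lower: Nfkbiz (238 CPM in Il12b-positive and 136 CPM in Il12b-negative macrophages), Batf and Irf8. Of the 14 immediate-early and heat-shock genes, none was higher and 8 were lower, with Hspa1a at 551 CPM in Il12b-positive and 1194 CPM in Il12b-negative macrophages. Of the 13 endocrine hormone genes, 5 were higher and 3 lower in Il12b-positive macrophages, with Ins2 at 2644 CPM in Il12b-positive and 1507 CPM in Il12b-negative macrophages and Ppy among the 3 that were lower. Of the migratory dendritic cell markers, 4 of 5 tested were higher and none lower (82.6 CPM in sum in Il12b-positive and 47.1 CPM in Il12b-negative macrophages), and of the cDC2 markers 1 of 7 was higher and 2 lower. The part of these markers and of endocrine RNA in the other differences was not tested.

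Osm and Ptgs2 went with more of the same RNA. In Osm-positive macrophages, 12 of the 14 immediate-early and heat-shock genes were higher (median log2 ratio 0.93, against -0.08 over all genes), where 6.74% of all 12865 genes were higher and 9.31% lower. Outside the 10 genes, those most like Osm were Rgcc, Nr4a2, Hspa1a, Egr2 and Hspa1b, with ratios between 2.66 and 3.56. Il27 stood at 5.51 CPM in Osm-positive and 14.8 CPM in Osm-negative macrophages (0.37, 0.29 to 0.47), and Il12b at 97.3 CPM in Osm-positive and 201 CPM in Osm-negative macrophages (0.49, 0.46 to 0.51). The share of cells differed less than this level: Il12b and Osm were together in 94 cells, a ratio to the product of shares of 0.84 (0.68 to 1.02), and of 0.95 after thinning. Il15, a cytokine that sustains NK cells and memory T cells, was lower as well, at 40.7 CPM in Osm-positive and 101.3 CPM in Osm-negative macrophages.

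In Ptgs2-positive macrophages, 7 of the same 14 genes were higher and none lower, where 6.77% of all 12865 genes were higher and 14.9% lower. Il6 stood at 55.8 CPM in Ptgs2-positive and 19.9 CPM in Ptgs2-negative macrophages (2.80, 2.48 to 3.16), and Il10 at 151 CPM in Ptgs2-positive and 72.6 CPM in Ptgs2-negative macrophages (2.09, 1.95 to 2.23). Il23a had 31 UMIs in Ptgs2-positive and 19 UMIs in Ptgs2-negative macrophages (4.27, 2.34 to 8.00). Outside the 10 genes, those most like Ptgs2 were Gem, which encodes a small GTP-binding protein, Ptgs2os2, the antisense neighbour of Ptgs2, Lrrk2, Areg, a ligand of the epidermal growth factor receptor, and Ankrd33b, with ratios between 2.66 and 3.88. The ratio of Lrrk2 was 3.26, and 2.30 without its richest cell. None of the other 11 tested prostanoid genes passed 1.5-fold between Ptgs2-positive and Ptgs2-negative macrophages. The level of immediate-early and heat-shock RNA differed with each of Osm, Ptgs2, Il12b and Il10. Medians were 6446 CPM in Osm-positive and 3751 CPM in Osm-negative macrophages, and 7088 CPM in Ptgs2-positive and 4080 CPM in Ptgs2-negative ones. They were 3835 CPM in Il12b-positive and 4792 CPM in Il12b-negative macrophages, and 5094 CPM in Il10-positive and 4323 CPM in Il10-negative ones. None of the 14 genes passed 1.5-fold between Il10-positive and Il10-negative macrophages. The part of this RNA in the pattern was not tested.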

How the data were processed

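The authors deposited UMI counts for each gene and antibody tag in each cell; per the file headers these came from Cell Ranger 8.0.1. The submitters' processing notes name mm10. The rule for keeping barcodes and any use of strand in counting are not given in the sources here. The mRNA and antibody libraries share the barcodes of 1 matrix. Of 2237 barcodes, 2215 showed 200 genes or more and no more than 10% mitochondrial UMIs. Scrublet's own threshold marked 14 cells (0.632%), and the highest-scoring 40 (1.79%) were removed. Cells were clustered with scanpy 1.11.5 and leidenalg 0.10.2 (2000 variable genes, 30 components, 15 neighbours, resolution 1) without 125 genes that included the 10 genes and their pathway lists, and clusters were named from marker lists; 240 cells stayed in no class and 8 in an unnamed cluster. Kept cells had a median of 19349 RNA UMIs.

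The counts of each class were added up and divided by its total (CPM). Ratios have exact conditional binomial, shares Clopper-Pearson and sums Poisson intervals, and a sum of 0 was given a floor of 3 counts. A gene was tested for fold with at least 20 UMIs in both sums, higher or lower meaning at least 1.5-fold. The genes, lists and marker sets were chosen with earlier results of these data known. Named pathway genes had at least 100 UMIs and 1.5-fold, at most 4 per list and direction, by the interval bound nearest to 1; receptors of the 10 genes, Ifng and cells with extreme counts were named after their values were seen. Genes most like Il10, Il12b, Osm and Ptgs2 were taken from those with at least 200 UMIs in macrophages and a UMI in at least 5% of macrophages, leaving out the 10 genes and mitochondrial, ribosomal protein and the listed endocrine hormone and acinar genes. The ratio and overlap steps were tested on simulated data. For the ratios these were independent counts of macrophages against lymphocyte-like cells. They do not cover transcripts concentrated in few cells, such as Il12b.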

Additional observations from a re-analysis of the deposited data

How the results depend on the processing

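The number of genes found in at least 10% of macrophages (8), the overlap of Il10 and Il12b, and the counts of genes past 1.5-fold against lymphocyte-like and dendritic-like cells (8 and 4) kept their direction or stayed within 1.5 times under every alternative run for each. The overlap ratio lay between 1.23 (within clusters and depth classes) and 1.48 (thinned). The settings within or without clusters, and those on the 5 gated cells of the dendritic-like cluster 10.0, were chosen after the data were seen; counting these as dendritic-like took the Il10 ratio against dendritic-like cells to 1.84. The share of described pairs at a ratio of at least 1.5 was 8.57%, and 14.3% after thinning, where 28 pairs had a product of at least 5 cells. The CD9 counts were least stable. The 1 gene higher (Il27) became 0 with no doublet removed, without the 10% of macrophages richest in immediate-early and heat-shock RNA, without the cell holding most UMIs of each gene, and by raw CD9 counts. The 1 gene lower (Il23a) became 0 between the upper and lower 50%, between the upper and lower 20% and by raw counts. At 20% Il23a had 17 UMIs, under the minimum of 20, and in the quintiles a ratio of 0.40, and the 1 gene higher was Ptgs2 (log2 ratio 0.69) in place of Il27 (0.48). The cause of the other changes was not tested. Doublets were restored in the macrophage gate alone. No paired analysis was possible because there was 1 sample. Pooled animals and the lack of a second library mean that no value here can be set against variation between mice, and Il23a and Il27 rest on few UMIs. Among single genes and pairs, 38 values moved past their interval and 171 did not, with the shares moving most, downward, after thinning and at a minimum of 2 UMIs.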

Other observations

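The proliferation marker Mki67 went with both cytokines but the rest of the cell-cycle list did not go with both. Mki67 stood at 78.3 CPM in Il10-positive and 26.2 CPM in Il10-negative macrophages, and at 68.5 CPM in Il12b-positive and 37.6 CPM in Il12b-negative macrophages. Of 9 cycling genes, 6 were at least 1.5-fold higher and 1 lower in Il10-positive macrophages, where 4.66% of all genes were higher and 10.1% lower (Top2a 19.2 CPM, against 9.65 CPM in Il10-negative ones), whereas 1 was higher and 5 lower in Il12b-positive macrophages, where 4.93% were higher and 13.3% lower (Birc5 0.91 CPM, against 3.09 CPM in Il12b-negative ones). Some of the lower calls rest on few UMIs: Ccnb1 had 3 UMIs in Il10-positive and 17 in Il10-negative macrophages, and 2 in Il12b-positive and 18 in Il12b-negative ones, with intervals that span 1. Cells holding both cytokines had Socs3 at 467 CPM, against 307 CPM in cells with Il10 alone, 360 CPM with Il12b alone and 216 CPM with neither. Maf stood at 9.47 CPM in cells with both, 18.3 CPM with Il10 alone, 25.2 CPM with Il12b alone and 23.3 CPM with neither.

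An unnamed cluster of 8 cells, led by Calca, Il5, Gata3 and Icos, had Il10ra at 419 CPM and Stat4 at 1164 CPM. The 17 monocyte-like cells held no Il12b or Il6 UMI, had Il10ra at 288 CPM (226 to 362 CPM), and held Ebi3 in 9 cells. With 17 cells these zeros set only a wide limit, and the Il12b share was not resolved from that of macrophages. All 7 listed monocyte markers but also 4 of 6 neutrophil markers were higher in this cluster than in macrophages.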
